A study of Homo sapiens with 9 samples.

Results

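TYUC-1 libraries of day 6 of exposure to EPZ-6438 were compared with those of day 0, over every gene that could be tested. TYUC-1 is a suspension culture line from a neuroendocrine carcinoma of the esophagus, and EPZ-6438 (tazemetostat) is a drug that blocks the histone methyltransferase EZH2. The compared libraries were 3 labelled EZH2i D0 and 3 labelled EZH2i D6. A further 3 libraries of day 3 entered the fit only to estimate the spread, and their values are set beside the others where they add something. Genes entered the comparison if they had at least 10 counts in 3 or more of the 6 day 0 and day 6 libraries, which 15129 of the 35762 genes in the table did. Of the rest, 12810 had 0 counts in all 6 libraries and 7823 had too few counts. EPZ-6438 is the labelled treatment of all 9 libraries, those of day 0 included, and the protocol gives 2 uM EPZ-6438 or DMSO. Whether the day 0 cells received DMSO is not given in the sources used here. No vehicle-treated group of day 3 or day 6 was among the samples, so the drug and the time in culture cannot be told apart. A single line was used, and the series text calls the replicates biological without saying what separated them. The p-values therefore measure the spread between these libraries. The libraries measure polyadenylated RNA and not histone methylation.

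EZH2 is the enzyme of Polycomb repressive complex 2 (PRC2), a complex that also holds EED and SUZ12 and places methyl groups on lysine 27 of histone H3. The trimethylated mark is read by subunits of Polycomb repressive complex 1 (PRC1) and lies over silent developmental genes, whose promoters are often rich in CpG dinucleotides. In stratified squamous epithelium of the esophagus the transcription factor p63 maintains the basal layer, and the series as a whole is about p63 and the choice between squamous and neuroendocrine states.

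Levels are given as CPM, which are counts divided by the library size and the TMM factor of edgeR and brought to a common total. They are not divided by gene length, so levels of named genes are compared within a gene. Where genes are grouped or ranked by CPM below, the level also reflects transcript length. Means are followed by the SD over the 3 libraries of a day. Fold changes are log2 values of day 6 minus day 0 from edgeR's quasi-likelihood fit and are followed by their standard error. Adjusted p-values are Benjamini-Hochberg values over all 15129 genes tested, and a gene is called higher or lower where its value is under 0.05. In these bulk libraries, fewer cells of a kind and less RNA per cell cannot be told apart.

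Library totals ran from 21638874 to 31235055 counts. The second day 0 library stood apart from the other two. A chi-square statistic per gene between it and the first and the third day 0 libraries was 61.0 and 52.2, against 5.22 between those and at most 17.8 between any pair of day 6 libraries. Its values are therefore given separately for a number of the genes and counts that rest on it, but not for all of them. Where a fitted fold change starts from 0 counts on day 0 it depends on the fit's prior count, and the fold is instead a lower bound, computed as if the day 0 libraries together had held 3 counts (the floor). Where day 0 held only a few counts, the ratio of scaled counts follows with its 95% interval, which covers counting error only. The lower bound is set by the floor and is not a limit of such an interval.

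By day 6, 8361 of the 15129 genes had changed, 55.3% of those tested. Of these, 4430 were higher (29.3%) and 3931 were lower (26%). The 2 directions differed in size. A change of at least 2-fold was found for 2260 genes that were higher (14.9%) and 115 that were lower (0.76%). At 8-fold or more there were 730 genes that were higher and 1 that was lower. The median log2 fold change was 1.03 among genes called higher and -0.43 among genes called lower, beside 0.01 over all genes tested. Nearly all of the called genes, 8053, had no overlap between the 3 libraries of each day, against 59.2% of all genes tested. Without the second day 0 library, 4856 genes were higher and 4475 were lower. With scaling by library size alone the median of all genes moved from 0.01 to 0.12 and the split became 5282 higher and 2668 lower, so that 66.4% of the called genes were higher in place of 53.0%. Small changes are therefore read below relative to the TMM scale.

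The direction followed the level in CPM. Under a mean of 1 CPM, 42.7% of 1756 genes were higher and 2.39% were lower. From 100 CPM upwards, 8.44% of 2286 genes were higher and 51.9% were lower. The 4430 genes that were higher had a median level of 7.39 CPM and gained 50516 CPM in sum, while the 3931 genes that were lower had a median level of 58.6 CPM and their sum differed by -127762 CPM. Part of the excess of rises at low levels is set by the count minimum. No day 0 library reached 10 counts for 789 of the genes tested, which passed through day 6 alone, and 779 of these were called higher, as such a gene could hardly be called otherwise. The reverse held for 15 genes, 11 of them called lower. Without both kinds, 14325 genes remained, of which 25.5% were higher and 27.4% were lower, with a median log2 fold change of -0.02. These 2 shares are the ones against which the gene lists below are set. Of the 11049 genes whose mean reached 5 CPM, 2518 were higher and 3772 lower, but when scaled and fitted on their own the same genes gave 3051 and 2869.

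**Figure D1:**
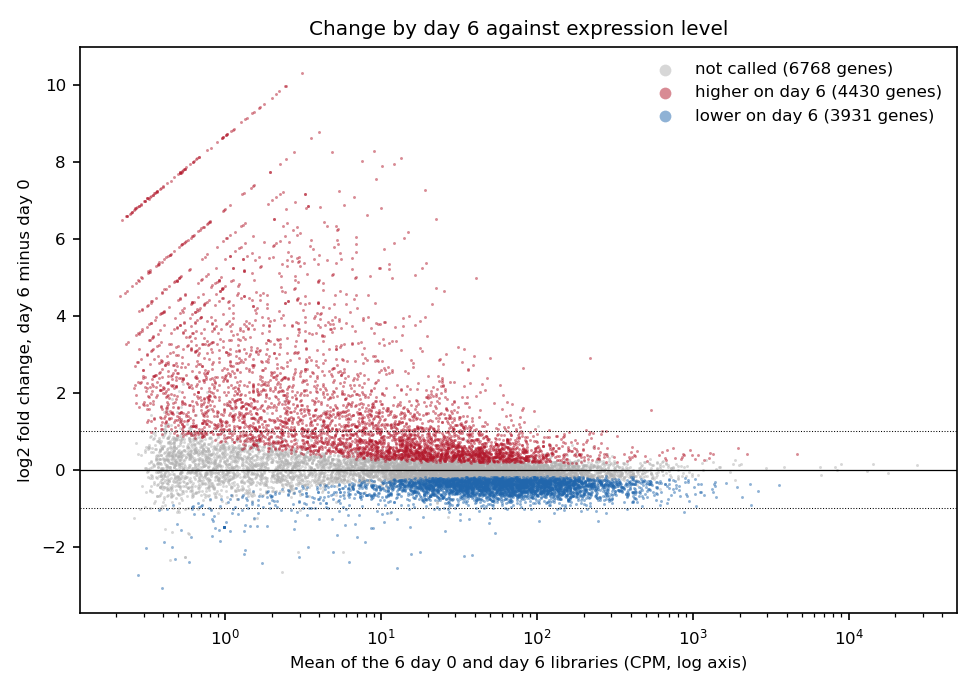
Each point is 1 of the 15129 genes tested, with its mean level over the 6 libraries in CPM on a log axis and its log2 fold change of day 6 minus day 0 on the vertical axis. The 4430 genes called higher (red) reach far above the dotted line at 2-fold, mostly at low levels, while the 3931 called lower (blue) lie mostly above the lower dotted line and at higher levels. Slanting rows of points at the left are genes with very few counts on day 0, whose fitted values depend on the prior count.

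Among genes whose mean reached 5 CPM and whose days did not overlap, the largest rises belonged to COL6A2, KIF1A, EVC, COL5A1, FXYD5, CACNA1H, COL6A1, ROBO3, DPYSL3, SEL1L3, LSP1 and FAT1. The start-site regions of the first 2 are shown beside that of PLN, the gene with the largest fall under the same conditions, to give the range of CpG content among them. They are the 250 bases before the RefSeq start of each gene in GRCh38.p14, written 5′ to 3′ on the gene's strand, with each CG dinucleotide in capitals. The COL6A2 region is chr21:46097862-46098111 on the plus strand, the KIF1A region is chr2:240821404-240821653 on the minus strand, and the PLN region is chr6:118548046-118548295 on the plus strand, inside an intron of CEP85L on the opposite strand.
COL6A2: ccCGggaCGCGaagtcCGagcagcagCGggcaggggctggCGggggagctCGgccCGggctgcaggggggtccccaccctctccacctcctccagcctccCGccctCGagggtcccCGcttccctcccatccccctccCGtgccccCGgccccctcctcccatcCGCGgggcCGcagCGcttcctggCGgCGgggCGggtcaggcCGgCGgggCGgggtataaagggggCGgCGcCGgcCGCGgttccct
KIF1A: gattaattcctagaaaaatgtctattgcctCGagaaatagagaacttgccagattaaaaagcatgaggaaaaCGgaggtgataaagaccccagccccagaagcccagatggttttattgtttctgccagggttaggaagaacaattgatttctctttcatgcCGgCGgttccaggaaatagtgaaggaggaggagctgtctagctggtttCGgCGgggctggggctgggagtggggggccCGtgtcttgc
PLN: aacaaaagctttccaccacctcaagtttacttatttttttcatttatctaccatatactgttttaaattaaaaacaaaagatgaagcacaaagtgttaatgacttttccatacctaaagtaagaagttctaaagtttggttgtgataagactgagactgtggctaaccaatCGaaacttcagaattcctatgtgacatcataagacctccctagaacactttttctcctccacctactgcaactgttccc
The COL6A2 region holds 28 CG dinucleotides in 79.6% G and C, the KIF1A region holds 7 in 49.6%, and the PLN region holds 1 in 34.8%. The same window of CALML3, the gene with the second largest fall, lies in a 5′ untranslated exon of the GENCODE annotation and is not shown. It holds 11 CG dinucleotides in 64% G and C, more than that of KIF1A. The KIF1A window lies wholly upstream of the GENCODE start of that gene, at 240821036, and the bases next to that start were not counted. With windows placed by the RefSeq starts, the 4 genes do not sort by direction.

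COL6A2 encodes a chain of collagen VI, a microfibril of the extracellular matrix. It had 0.0326, 0 and 0.141 CPM on day 0 and 16.5, 18.4 and 19.3 CPM on day 6 (log2 fold change 8.28 ± 0.34, adjusted p = 4.5e-09). Day 0 was nearly silent and the day 6 libraries lay close together. Its counts summed to 4 on day 0 and to 1367 on day 6, which is a ratio of 339 (95% interval 132 to 1245). KIF1A, a kinesin motor that carries synaptic vesicle precursors along axons, had 0.0978, 0.170 and 0 CPM on day 0 and 24.4, 25.2 and 30.7 CPM on day 6 (log2 fold change 8.10 ± 0.28, adjusted p = 1.4e-09). EVC, a ciliary membrane protein that acts in Hedgehog signalling, had 0.0326, 0.0850 and 0.0470 CPM on day 0 and 15.003, 15.1 and 15.2 CPM on day 6 (log2 fold change 8.02 ± 0.29, adjusted p = 1.6e-09). These 3 genes had only a few counts on day 0, and the lack of overlap with day 6 was a condition of being among the 12. The fibrillar collagen COL5A1 had 0.130, 0.0850 and 0.0470 CPM on day 0 and 22.4, 23.4 and 26.6 CPM on day 6 (log2 fold change 7.95 ± 0.28, adjusted p = 1.4e-09). FXYD5, a small membrane protein that modulates the sodium pump, had 0.0326, 0.0425 and 0.188 CPM on day 0 and 19.0, 18.6 and 23.2 CPM on day 6. The T-type calcium channel gene CACNA1H had 0.0978, 0.0850 and 0.0940 CPM on day 0 and 17.7, 17.5 and 20.3 CPM on day 6 (log2 fold change 7.57 ± 0.20, adjusted p = 4.2e-10), the lowest adjusted p of the 12. COL6A1, the partner chain of COL6A2 in collagen VI, had 0.163, 0.0850 and 0.517 CPM on day 0 and 35.7, 34.5 and 43.6 CPM on day 6 (log2 fold change 7.28 ± 0.26, adjusted p = 1.9e-09). The third day 0 library was the highest of its day for COL6A1 and for COL6A2. The remaining members of the 12 had log2 fold changes from 6.62 ± 0.23 for the atypical cadherin FAT1 to 7.23 ± 0.32 for the axon guidance receptor ROBO3. All 12 except COL6A1 had passed the count minimum through day 6 alone.

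On day 3 the same genes were at intermediate means, for example 2.49 ± 0.582 CPM for COL6A2, 3.25 ± 0.257 CPM for KIF1A, 2.46 ± 0.604 CPM for EVC and 4.28 ± 1.10 CPM for COL5A1. The day 3 and day 6 changes share the day 0 libraries.

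Among genes whose mean reached 5 CPM and whose days did not overlap, the 12 largest falls were smaller than the rises. They ran from a log2 fold change of -2.54 ± 0.16 for PLN, which encodes the phospholamban inhibitor of the endoplasmic reticulum calcium pump, to -1.4999 ± 0.20 for AC068631.2, a gene known only by a clone name. PLN had 21.1, 27.0 and 17.3 CPM on day 0 and 3.77, 3.79 and 3.62 CPM on day 6 (adjusted p = 1.1e-07). The second day 0 library was highest and the day 6 libraries were nearly equal. CALML3, a calmodulin-like protein of epithelia, had 11.3, 10.7 and 9.26 CPM on day 0 and 1.98, 2.11 and 1.85 CPM on day 6 (log2 fold change -2.39 ± 0.13, adjusted p = 4.5e-08). CALML3 overlaps an antisense gene, CALML3-AS1, and whether the counting used strand is not given in the sources used here. COL6A6, a further collagen VI chain that is not in the collagen list below, went against COL6A1 and COL6A2 with 35.3, 20.4 and 30.8 CPM on day 0 and 6.83, 6.16 and 6.76 CPM on day 6 (log2 fold change -2.13 ± 0.17, adjusted p = 1.1e-06). INSYN2A, an inhibitory synapse factor, had 12.03, 12.6 and 12.5 CPM on day 0 and 3.50, 3.02 and 3.62 CPM on day 6 and the amino acid transporter SLC38A4 had 10.8, 12.4 and 9.07 CPM on day 0 and 2.93, 3.23 and 3.45 CPM on day 6. ID3, an inhibitor of basic helix-loop-helix factors and a target of BMP signalling, had 13.01, 14.6 and 10.8 CPM on day 0 and 4.68, 4.57 and 4.26 CPM on day 6 (log2 fold change -1.51 ± 0.13, adjusted p = 1.4e-06). The G protein subunit GNG11 had 11.9, 16.5 and 11.4 CPM on day 0 and 5.28, 4.53 and 3.96 CPM on day 6. AC006064.6 had 45.6, 67.2 and 56.7 CPM on day 0 and 23.4, 0.0431 and 11.8 CPM on day 6, so that its day 6 libraries spread over a wide range. Its call (adjusted p = 0.013) was lost without the third day 6 library and under DESeq2, with adjusted p up to 0.13. DERPC, with 16.3, 32.9 and 27.9 CPM on day 0 and 6.46, 2.72 and 7.71 CPM on day 6, shares its locus with CHTF8, and reads of both may have been split between them.

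Ranked by the difference in mean CPM rather than by fold, the gains were led by abundant genes. GAPDH, the glycolytic dehydrogenase, had 3571, 4702 and 3736 CPM on day 0 and 5182, 4939 and 5846 CPM on day 6 (log2 fold change 0.41 ± 0.11, adjusted p = 0.0085). The glycolytic enzymes ENO1 and PKM followed with log2 fold changes of 0.42 ± 0.092 and 0.42 ± 0.082. AHNAK, a very large scaffold protein, had 307, 146 and 371 CPM on day 0 and 762, 859 and 793 CPM on day 6 (log2 fold change 1.55 ± 0.24, adjusted p = 2.1e-04), with the second day 0 library far below the others. NDRG1, a gene induced by hypoxia and by differentiation, had 39.9, 61.2 and 54.9 CPM on day 0 and 329.7, 399.9 and 437 CPM on day 6 (log2 fold change 2.90 ± 0.16, adjusted p = 3.4e-08). RPL13A, a ribosomal protein gene with many processed copies, had a log2 fold change of 0.42 ± 0.10. MTRNR2L12, a nuclear gene that resembles mitochondrial ribosomal RNA, had 1109, 1622 and 2011 CPM on day 0 and 1874, 1985 and 3200.1 CPM on day 6, with overlapping days. Its call was lost in several settings, among them without the first day 0 library, with adjusted p up to 0.28. The GAPDH call was lost when trends on transcript GC content and length were removed (adjusted p = 0.17). The largest losses in CPM were those of HSP90AA1, ACTB, HSPA8, HNRNPA2B1, NCL, HSPA9, HSPD1 and PABPC1, a group of chaperones, RNA-binding proteins and beta-actin. HSP90AA1, the inducible cytosolic HSP90, had 2994, 3361 and 2892 CPM on day 0 and 1785, 1724 and 1411 CPM on day 6 (log2 fold change -0.91 ± 0.10, adjusted p = 1.5e-05). NCL, which encodes nucleolin, fell from 1741 ± 65.3 to 1072 ± 118 CPM (log2 fold change -0.70 ± 0.092, adjusted p = 5.1e-05). ACTB fell from 4084 ± 459 to 3089 ± 305 CPM (log2 fold change -0.40 ± 0.11, adjusted p = 0.0067).

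The targeted complex itself was measured first among the gene groups. EZH2 had 192, 197 and 189.7 CPM on day 0 and 154, 156 and 141 CPM on day 6 (log2 fold change -0.36 ± 0.068, adjusted p = 8.3e-04), so all 3 day 6 libraries lay below all 3 of day 0. Since the compound blocks the enzyme and not its transcription, the transcript does not check the treatment. EED, the subunit that binds the mark, fell from 42.1 ± 5.04 to 28.0 ± 2.20 CPM (log2 fold change -0.59 ± 0.10, adjusted p = 2.5e-04), and SUZ12, the core scaffold, fell from 173 ± 17.6 to 116 ± 7.01 CPM (log2 fold change -0.58 ± 0.084, adjusted p = 1.2e-04). The accessory subunit AEBP2 fell by more, from 192 ± 10.6 to 118 ± 8.87 CPM (log2 fold change -0.70 ± 0.077, adjusted p = 1.3e-05). JARID2, which guides PRC2 to chromatin, rose from 33.3 ± 4.11 to 48.0 ± 0.762 CPM (log2 fold change 0.53 ± 0.092, adjusted p = 4.3e-04), as did PHF1, a further accessory subunit (log2 fold change 0.73 ± 0.10, adjusted p = 9.8e-05). EZHIP, an inhibitor of PRC2 that is normally restricted to gonads, had 0.0978, 0.0850 and 0.188 CPM on day 0 and 4.37, 4.18 and 4.31 CPM on day 6 (log2 fold change 5.11 ± 0.27, adjusted p = 3.4e-08). EZH1, the paralogue that can stand in for EZH2, had 38.7, 34.5 and 42.3 CPM on day 0 and 44.3, 40.7 and 39.8 CPM on day 6 (adjusted p = 0.29), and was called higher with the GC and length trends removed (adjusted p = 0.011). In all, 3 of the 14 PRC2 genes tested, EZHIP among them, were higher and 7 were lower. Without EZHIP, which passed through day 6 alone, 2 of 13 were higher (15.4%, beside 25.5% of all genes). The 7 lower were then 53.8%, beside 27.4%. The demethylase KDM6B, which removes the mark, had 74.8 ± 14.1 CPM on day 0 and 85.1 ± 10.4 CPM on day 6 (adjusted p = 0.25).

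Among the 21 PRC1 subunits, 3 were higher and 5 were lower, both below the shares of all genes. CBX7, a reader of trimethylated lysine 27, rose from 12.96 ± 1.16 to 27.7 ± 1.57 CPM (log2 fold change 1.10 ± 0.10, adjusted p = 1.9e-06) and PHC1 rose from 49.6 ± 0.840 to 85.6 ± 5.36 CPM (log2 fold change 0.79 ± 0.071, adjusted p = 2.6e-06). PCGF6 fell from 13.9 ± 2.34 to 8.98 ± 0.561 CPM and YAF2 fell from 25.4 ± 4.75 to 16.0 ± 1.96 CPM. The number of PRC1 subunits called lower was 12 when the GC and length trends were removed, and 3 without the first or the third day 0 library or without the first or the third day 6 library. Scaled by library size alone, 9 were higher, and without the second day 0 library 5 were higher. Of 20 activating regulators (trithorax-type methyltransferases, acetyltransferases, SWI/SNF subunits and the like) none was higher by edgeR (0 at an unadjusted p under 0.05, and none by DESeq2 or limma with voom). Of the same 20, 7 were lower (35%, beside 27.4% of all genes). This second count changed with single libraries of both days. It was 17 without the second day 0 library, 2 or 3 without any 1 of the first or the third day 0 library or the first or second day 6 library, and 1 with library size alone. EP300 had 671, 468 and 680.4 CPM on day 0 and 468, 445 and 494 CPM on day 6 and ARID1A had 425, 297 and 421 CPM on day 0 and 296, 278 and 317 CPM on day 6, both with the second day 0 library at the level of day 6.

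The neuroendocrine label was checked against the markers of that lineage. Of 40 markers listed, 23 were tested, 12 of them higher and 2 lower. CHGA, the chromogranin that defines many neuroendocrine tumours, had 0 counts in all 9 libraries. INSM1, a zinc finger factor of neuroendocrine cells, had 4.40, 4.59 and 4.23 CPM on day 0 and 5.18, 5.001 and 5.77 CPM on day 6 (adjusted p = 0.12). INSM1 was called higher with library size alone (adjusted p = 0.031) and lower with the GC and length trends removed (adjusted p = 0.035). The synaptic vesicle protein SYP had 6.81, 4.93 and 5.78 CPM on day 0 and 5.72, 6.60 and 5.90 CPM on day 6 (adjusted p = 0.79). NEUROD1 had 2.61, 2.85 and 3.71 CPM on day 0 and 1.82, 2.97 and 3.45 CPM on day 6 (adjusted p = 0.6). The libraries of both days overlapped for SYP and NEUROD1. NCAM1, a neural adhesion molecule, rose from 7.08, 6.08 and 5.59 CPM to 21.4, 19.4 and 19.4 CPM (log2 fold change 1.68 ± 0.10, adjusted p = 1.0e-07). KIF5C, a neuronal kinesin, went from 1 count on day 0 to 93 on day 6, a ratio of 92.2 (95% interval 16.1 to 3679), and RIMBP2, a protein of the presynaptic active zone, had 0.130, 0 and 0.141 CPM on day 0 and 1.82, 1.94 and 2.24 CPM on day 6 (log2 fold change 4.36 ± 0.44, adjusted p = 7.1e-06). PROX1, a homeobox factor, fell (log2 fold change -0.63 ± 0.075, adjusted p = 2.4e-05). REST, the repressor of neuronal genes, had 53.8, 54.7 and 51.5 CPM on day 0 and 50.7, 57.6 and 44.9 CPM on day 6 (adjusted p = 0.58). Without the 5 markers that passed through day 6 alone, 7 of 18 were higher (38.9%, beside 25.5% of all genes) and 2 lower, with a median of 0.24.

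Tuft cells are chemosensory epithelial cells that depend on POU2F3, and a number of carcinomas with neuroendocrine features express this factor. Of 20 tuft genes 17 were tested, with 8 lower (47.1%, beside 27.4%) and 5 higher. POU2F3 had 289.9, 277 and 287 CPM on day 0 and 233, 219 and 231 CPM on day 6 (log2 fold change -0.32 ± 0.066, adjusted p = 0.0014), with no overlap. On day 3 it had been at 289 ± 5.92 CPM. AVIL, which encodes the actin bundler advillin, fell from 67.3, 69.3 and 75.04 CPM to 31.2, 28.5 and 28.4 CPM (log2 fold change -1.26 ± 0.076, adjusted p = 8.1e-08), having been at 79.9 ± 2.62 CPM on day 3. BMX, a Tec-family kinase, fell from 160.4 ± 14.3 to 97.1 ± 4.82 CPM (log2 fold change -0.72 ± 0.079, adjusted p = 1.2e-05), and TRPM5, the cation channel of taste transduction, fell from 10.1 ± 2.48 to 6.48 ± 0.736 CPM (log2 fold change -0.65 ± 0.16, adjusted p = 0.0051). The homeobox genes HMX2 and HMX3 rose with log2 fold changes of 1.20 ± 0.13 and 2.12 ± 0.28, and SH2D6 rose from 9.67 ± 0.766 to 16.6 ± 0.813 CPM (log2 fold change 0.79 ± 0.10, adjusted p = 3.7e-05).

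Genes of basal squamous cells were mostly higher on day 6. TP63, which encodes p63, had 0.0978, 0.0425 and 0.0470 CPM on day 0 and 0.471, 0.517 and 0.560 CPM on day 6 (log2 fold change 2.87 ± 0.67, adjusted p = 0.0033), that is 5 counts on day 0 against 39 on day 6, giving a ratio of 7.73 (95% interval 3.04 to 25.1). It stayed at under 1 CPM in all of them. Its day 3 libraries had 0.859, 0.234 and 1.001 CPM. SOX2, the partner of p63 in squamous cells, had 0.0652, 0.0425 and 0.0470 CPM on day 0 and 2.93, 2.46 and 2.33 CPM on day 6, with 4 counts against 198 and a ratio of 49.1 (95% interval 18.9 to 182). KRT5, the basal keratin, had 1.08, 0.935 and 1.13 CPM on day 0 and 5.25, 6.29 and 6.93 CPM on day 6 (log2 fold change 2.55 ± 0.22, adjusted p = 2.0e-06), while its day 3 mean was 0.417 ± 0.175 CPM. KRT14, the usual partner of KRT5, had 1 count over day 0 and 2 over day 6 and was not tested. CDH3, which encodes P-cadherin, had 5.35, 5.87 and 6.21 CPM on day 0 and 40.5, 40.5 and 46.0 CPM on day 6 (log2 fold change 2.87 ± 0.10, adjusted p = 1.3e-09), the lowest adjusted p of the group. GPC1, a glypican, rose from 12.95 ± 1.65 to 62.0 ± 7.48 CPM (log2 fold change 2.26 ± 0.11, adjusted p = 1.9e-08), and TRIM29 rose from 49.4 ± 1.46 to 117 ± 10.7 CPM (log2 fold change 1.24 ± 0.08, adjusted p = 1.4e-07). EGFR, the epidermal growth factor receptor, went from 1 count to 333, a ratio of 330.02 (95% interval 58.8 to 13074). NGFR, a surface marker of basal stem cells, went from 0 counts to 230, at least 76.0-fold higher. Of 30 listed, 22 were tested, 17 higher and 1 (TFAP2A, log2 fold change -0.43 ± 0.069, adjusted p = 2.5e-04) lower. Without the 5 that passed through day 6 alone, 12 of 17 were higher (70.6%, beside 25.5%), with a median of 0.63. When the second day 0 library was left out, 2 members of the list were lower. This list, like others below, was drawn up with earlier results of these data known.

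Genes of squamous differentiation showed the same direction in part. Of 25 tested, 17 were higher and 2 lower, and of the 18 that did not pass through day 6 alone 10 were higher (55.6%) and 2 lower (median 0.57). PPL, the desmosomal linker periplakin, had 9.55, 6.504 and 9.54 CPM on day 0 and 33.6, 35.7 and 41.3 CPM on day 6 (log2 fold change 2.11 ± 0.13, adjusted p = 1.4e-07). KRT4, the keratin of the upper layers of esophageal epithelium, had 0.685, 0.935 and 0.329 CPM on day 0 and 10.1, 7.54 and 10.03 CPM on day 6 (log2 fold change 3.80 ± 0.26, adjusted p = 2.3e-07), with 0.273 ± 0.0476 CPM on day 3. SPRR1B, a cornified envelope precursor, had 1.86, 3.06 and 2.35 CPM on day 0 and 8.75, 6.60 and 7.97 CPM on day 6 (log2 fold change 1.69 ± 0.19, adjusted p = 1.6e-05), with 0.647 ± 0.0809 CPM on day 3. For KRT5, KRT4 and SPRR1B the day 3 mean thus lay below that of day 0 and the day 6 mean above it. The desmosomal cadherin DSC2 and the calcium-binding protein S100A9 rose from 0.0880 ± 0.0852 to 3.28 ± 0.184 CPM and from 0.329 ± 0.0873 to 4.43 ± 1.24 CPM. IVL, which encodes involucrin, had 3 counts over day 0 and 15 over day 6 and was not tested. ANXA1, a phospholipid-binding protein of the upper layers, fell from 1617 ± 346 to 1074 ± 76.4 CPM (log2 fold change -0.59 ± 0.13, adjusted p = 0.002), a call that was lost with the GC and length trends removed (adjusted p = 0.30). GRHL1 fell by less (log2 fold change -0.27 ± 0.08, adjusted p = 0.013), and its call was lost with library size alone (adjusted p = 0.14).

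**Figure D2:**
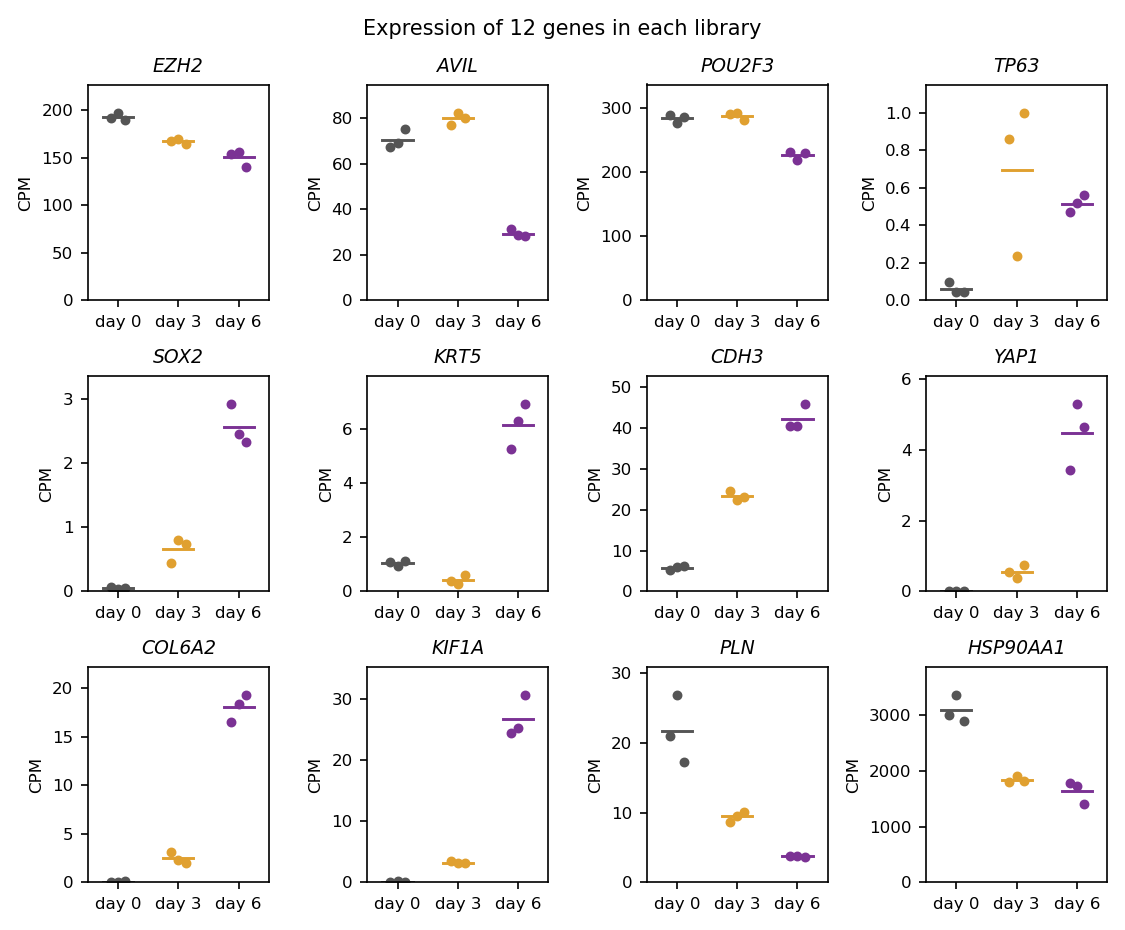
Each panel shows 1 gene in CPM on a linear axis from 0, with 1 point for each library of day 0, day 3 and day 6 and a bar for the mean of the 3. EZH2, AVIL, POU2F3, PLN and HSP90AA1 end lower on day 6, and TP63, SOX2, KRT5, CDH3, YAP1, COL6A2 and KIF1A end higher. TP63 stays under 1 CPM in all libraries of day 0 and day 6 and has a wide spread on day 3, and KRT5 is lower on day 3 than on day 0.

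Simple epithelial genes were already expressed on day 0. Of 28 tested, 16 were higher (57.1%) and 6 lower (21.4%), with a median of 0.29. The tight junction gene CLDN4 rose from 38.0, 42.9 and 39.6 CPM to 119.8, 112 and 136 CPM (log2 fold change 1.61 ± 0.092, adjusted p = 5.5e-08), and TJP3 and CLDN3, of the same structure, rose with log2 fold changes of 1.39 ± 0.089 and 1.18 ± 0.13. The membrane serine protease PRSS8 rose from 11.8 ± 0.970 to 32.7 ± 5.39 CPM (log2 fold change 1.47 ± 0.15, adjusted p = 5.6e-06), and SPINT1, an inhibitor of such proteases, rose from 24.3 ± 1.63 to 48.6 ± 7.53 CPM (log2 fold change 0.997 ± 0.11, adjusted p = 1.1e-05). EPCAM fell from 468 ± 86.6 to 306 ± 16.7 CPM (log2 fold change -0.61 ± 0.11, adjusted p = 6.7e-04). The number called lower was 1 with library size alone and 2 or 3 without any 1 of the first or the third day 0 library or the first or second day 6 library.

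Of the gastric and intestinal genes, 30 were listed and 16 tested, with 9 higher and 1 lower. The secreted mucins MUC5B and MUC5AC had 2.12, 1.32 and 1.88 CPM on day 0 and 28.3, 24.1 and 33.5 CPM on day 6 (log2 fold change 3.99 ± 0.17, adjusted p = 7.4e-09) and 0.815, 0.425 and 0.470 CPM on day 0 and 8.71, 6.60 and 10.2 CPM on day 6 (log2 fold change 3.84 ± 0.25, adjusted p = 1.9e-07). FOXA1, a pioneer factor of endoderm, fell from 97.8, 109 and 95.5 CPM to 58.6, 50.1 and 53.6 CPM (log2 fold change -0.89 ± 0.083, adjusted p = 3.4e-06). Its paralogue FOXA2 went from 0 counts to 158, at least 52.2-fold higher, and GATA4, an endodermal zinc finger factor, from 0 to 148, at least 48.9-fold higher. Both stayed under 3 CPM on day 6. Of the 11 that did not pass through day 6 alone, 4 were higher and 1 lower, a small base.

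Matrix genes were mostly higher. Of 42 collagen genes 27 were tested, 20 higher and 1 lower, the basement membrane chain COL4A5 (log2 fold change -0.67 ± 0.078, adjusted p = 2.1e-05). Without the 7 that passed through day 6 alone, 13 of 20 were higher (65%), with a median of 1.17. When the second day 0 library was left out, 3 of the 27 were lower. COL1A1, the main chain of fibrillar collagen I, had 0.391, 0.425 and 0.658 CPM on day 0 and 8.34, 9.87 and 10.4 CPM on day 6 (log2 fold change 4.30 ± 0.21, adjusted p = 1.9e-08), and COL27A1, a further fibrillar collagen, had 0.652, 0.638 and 0.376 CPM on day 0 and 10.97, 11.2 and 11.8 CPM on day 6 (log2 fold change 4.31 ± 0.19, adjusted p = 6.3e-09). With a mean of at least 5 CPM required, 5 of the same 20 collagens were called higher, since fewer were tested. Integrins, the receptors of matrix, and laminins, the glycoproteins of basement membrane, were higher for 19 of 27 and lower for 1. Without the 4 passing through day 6 alone they were higher for 15 of 23 (65.2%, median 0.96). ITGB5 had 16.6, 16.7 and 17.9 CPM on day 0 and 66.0, 62.6 and 64.0 CPM on day 6 (log2 fold change 1.91 ± 0.071, adjusted p = 2.1e-09). ITGA5, the fibronectin receptor subunit, rose from 9.9999 ± 0.690 to 41.6 ± 6.77 CPM (log2 fold change 2.05 ± 0.12, adjusted p = 7.0e-08) and ITGA3, a laminin receptor subunit, rose from 13.1 ± 1.81 to 38.8 ± 4.15 CPM (log2 fold change 1.57 ± 0.11, adjusted p = 3.4e-07). The laminin chain LAMC1 had 0.163, 0.128 and 0.0940 CPM on day 0 and 10.02, 9.70 and 11.6 CPM on day 6 (log2 fold change 6.25 ± 0.22, adjusted p = 1.4e-09).

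Mesenchymal genes were more often higher than lower. TGFBI, a matrix protein induced by TGF-beta, had 3.36, 3.27 and 3.10 CPM on day 0 and 37.7, 33.7 and 37.6 CPM on day 6 (log2 fold change 3.48 ± 0.10, adjusted p = 8.6e-10), and CAVIN1, a coat protein of caveolae, rose from 9.47 ± 0.947 to 35.8 ± 2.89 CPM (log2 fold change 1.92 ± 0.10, adjusted p = 2.3e-08). FN1, which encodes fibronectin, rose from 1.21 ± 0.464 to 6.57 ± 0.359 CPM (log2 fold change 2.44 ± 0.22, adjusted p = 2.3e-06), and the collagen cross-linking enzyme LOX rose from 1.96 ± 0.549 to 7.97 ± 1.31 CPM (log2 fold change 2.02 ± 0.19, adjusted p = 4.1e-06). CDH2, which encodes N-cadherin, and ZEB2, a repressor of epithelial genes, fell with log2 fold changes of -0.47 ± 0.067 and -0.64 ± 0.08. In all, 11 of 19 were higher and 3 lower. Without the 2 that passed through day 6 alone, 9 of 17 were higher (52.9%, beside 25.5% of all genes) and 3 lower. Of 12 fibroblast markers listed, 2 were at 0 in all 6 libraries and 5 were tested. Among these 5, 4 were higher, COL1A1, ACTA2 and PDGFRB being 3 of them. As 2 of the 5 had passed through day 6 alone, 3 remained, 2 of them higher, a small base. The summed level of this list ran from 55.2 to 60.3 CPM on day 0 and 74.98 to 82.1 CPM on day 6, most of it PDGFRA, whose own call (adjusted p = 0.035) was lost without the first day 0, any day 3, or the first or second day 6 library, with adjusted p up to 0.11. DCN and LUM, defining markers of fibroblasts, had 13 and 0 counts over day 0 and 22 and 16 over day 6. Whether any part of the matrix result came from other cells was not tested.

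The list of developmental transcription factors held members of the homeobox, forkhead, GATA, SOX, PAX and T-box families and others such as WT1. It had 89 genes tested, with 52 higher and 10 lower. Of these 89, 22 had passed through day 6 alone. Among the other 67, 30 were higher (44.8%) and 10 lower, with a median of 0.26, but with the GC and length trends removed the same genes gave 21 higher and 20 lower. PAX9, a factor of foregut and oral epithelium, had 0.456, 0.298 and 0.564 CPM on day 0 and 6.997, 7.199 and 7.02 CPM on day 6 (log2 fold change 3.999 ± 0.20, adjusted p = 2.3e-08). DLX4 and DLX3, distal-less homeobox genes, had 2.02, 1.83 and 2.63 CPM on day 0 and 12.1, 10.7 and 10.7 CPM on day 6 (log2 fold change 2.38 ± 0.15, adjusted p = 1.2e-07) and 0.261, 0.213 and 0.188 CPM on day 0 and 4.41, 4.44 and 4.95 CPM on day 6 (log2 fold change 4.33 ± 0.27, adjusted p = 1.3e-07). WT1, a zinc finger factor of the kidney and mesothelium, went from 1 count to 290, a ratio of 287 (95% interval 51.2 to 11391). For all 4 factors each day 6 library lay above every day 0 library.

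HOX genes, which set position along the body axis and are a textbook target of Polycomb, were mostly expressed on day 0 and did not move together. Of 36 tested, 10 were higher and 8 lower, which without the 2 passing through day 6 alone is 8 of 34 (23.5%) and 8 (23.5%), near the shares of all genes. HOXC12 rose from 14.8 ± 0.795 to 26.0 ± 1.69 CPM (log2 fold change 0.81 ± 0.088, adjusted p = 1.3e-05), HOXC5 fell from 36.2 ± 2.68 to 23.9 ± 1.73 CPM (log2 fold change -0.60 ± 0.083, adjusted p = 7.9e-05) and HOXA4 fell from 19.4 ± 2.51 to 13.1 ± 0.509 CPM (log2 fold change -0.57 ± 0.10, adjusted p = 4.7e-04). HOXB9 was at 0 counts on day 0 and at 154 on day 6, at least 50.9-fold higher, and its neighbour HOXB8 had 0.0326, 0.128 and 0 CPM on day 0 and 0.404, 0.604 and 0.818 CPM on day 6. With the GC and length trends removed, 5 HOX genes were higher and 13 were lower.

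**Figure D3:**
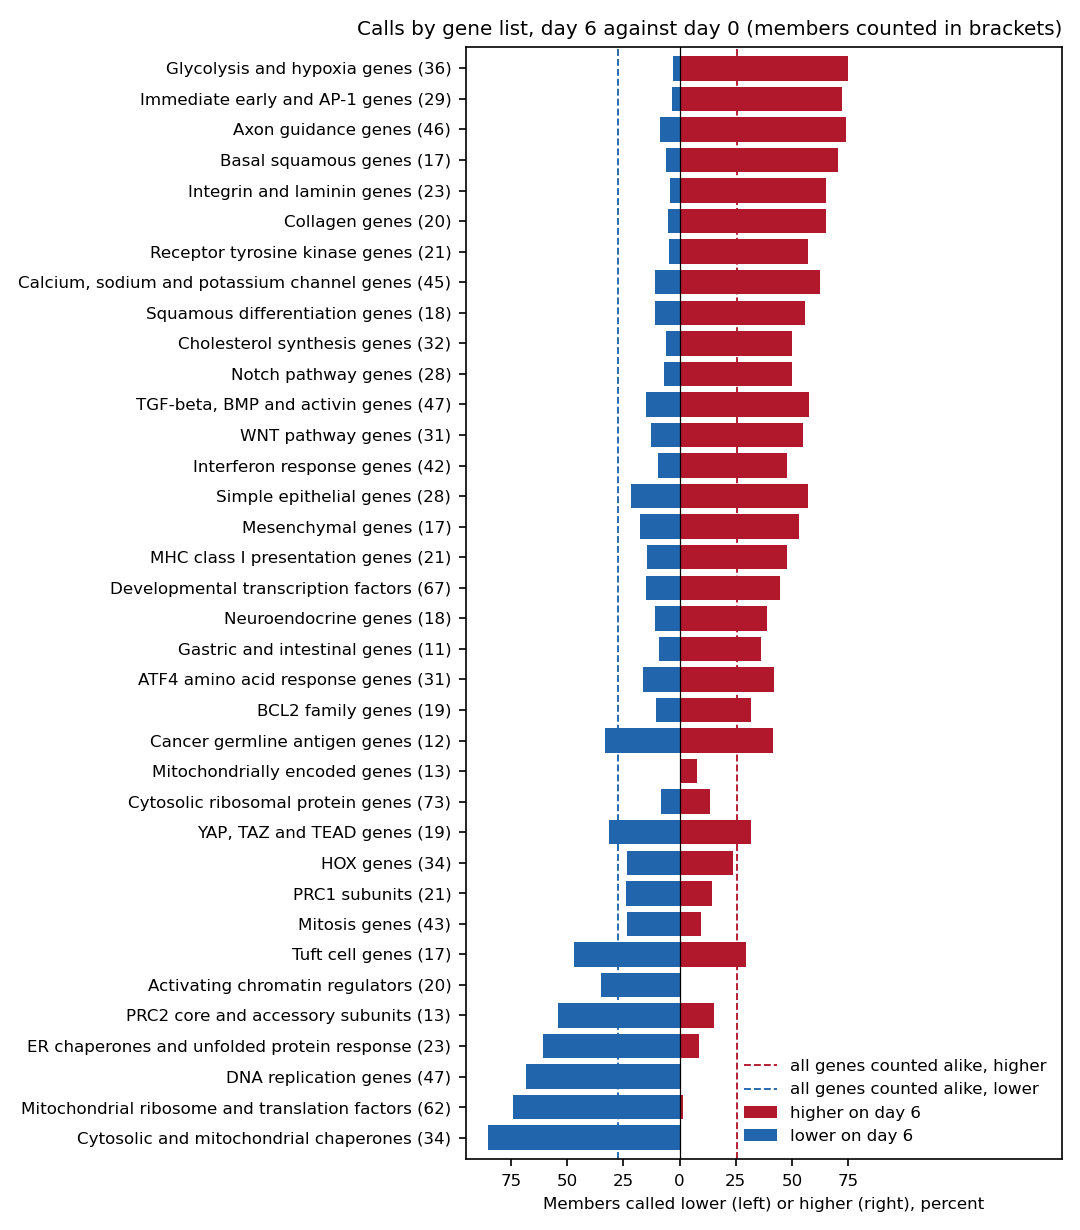
Bars show, for each list with at least 10 members left, the percent of members called higher (red, right) and lower (blue, left), leaving out genes that passed the count minimum through 1 day alone. Dashed lines mark the shares of all 14325 genes counted the same way, 25.5% higher and 27.4% lower. Glycolysis, immediate early, axon guidance, basal squamous, integrin and collagen lists lie at the top, chaperones, mitochondrial ribosome and DNA replication at the bottom, and HOX and YAP lists near both lines.

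Signalling pathways that pattern tissues rose in several components. In the WNT list 23 of 37 were higher and 4 lower. Without the 6 that passed through day 6 alone, 17 of 31 were higher (54.8%, beside 25.5% of all genes) and 4 lower. NKD1 and NKD2, feedback inhibitors of the pathway, had 0.326, 0.340 and 0.141 CPM on day 0 and 12.4, 12.3 and 13.4 CPM on day 6 (log2 fold change 5.49 ± 0.21, adjusted p = 2.8e-09) and 9.62, 8.46 and 9.03 CPM on day 0 and 25.3, 20.5 and 24.0 CPM on day 6 (log2 fold change 1.36 ± 0.10, adjusted p = 6.3e-07). The frizzled receptors FZD8 and FZD4 rose with log2 fold changes of 3.84 ± 0.17 and 2.73 ± 0.19. TCF7L1, a repressive factor at WNT targets, rose from 3.98 ± 0.760 to 17.6 ± 2.62 CPM (log2 fold change 2.13 ± 0.15, adjusted p = 3.5e-07). The number of WNT genes called lower was 2 without the first or the third day 0 or the first day 6 library, 1 with library size alone and 8 with the GC and length trends removed.

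In the TGF-beta, BMP and activin list, 35 of 55 were higher and 7 lower. Without the 8 that passed through day 6 alone, 27 of 47 were higher (57.4%) and 7 lower, with a median of 0.36. INHBB, a subunit of activin and inhibin, went from 2 counts to 733, a ratio of 363 (95% interval 100.2 to 3005). The latent TGF-beta binding proteins LTBP4 and LTBP2 rose from 17.8 ± 1.35 to 74.6 ± 9.05 CPM (log2 fold change 2.07 ± 0.10, adjusted p = 1.4e-08) and from 10.8 ± 1.25 to 36.1 ± 2.37 CPM (log2 fold change 1.74 ± 0.10, adjusted p = 5.9e-08). The BMP antagonists NBL1 and CHRD rose with log2 fold changes of 2.1901 ± 0.14 and 4.88 ± 0.34. ID1, ID2 and ID3, targets that BMP signals induce, were all lower, at -1.35 ± 0.13, -0.43 ± 0.11 and -1.51 ± 0.13. FST, the activin-binding protein follistatin, fell from 7.30 ± 0.876 to 3.46 ± 0.450 CPM (log2 fold change -1.08 ± 0.16, adjusted p = 1.2e-04). ID1, ID3 and FST were the 3 members that fell by at least 2-fold.

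Of 30 Notch genes tested, 16 were higher and 2 lower. Without the 2 that passed through day 6 alone, 14 of 28 were higher (50%, beside 25.5% of all genes). The effector HES1, a transcriptional repressor, had 10.1, 16.1 and 14.2 CPM on day 0 and 39.6, 46.4 and 49.6 CPM on day 6 (log2 fold change 1.76 ± 0.15, adjusted p = 1.6e-06). HES2, HEYL and HES7, of the same factor family, rose with log2 fold changes of 2.95 ± 0.13, 1.97 ± 0.14 and 1.45 ± 0.14. The co-activator MAML2 rose from 0.528 ± 0.235 to 2.90 ± 0.256 CPM (log2 fold change 2.40 ± 0.28, adjusted p = 2.0e-05). The receptor NOTCH1 had 2.12, 0.255 and 1.08 CPM on day 0 and 2.05, 1.38 and 1.64 CPM on day 6, with overlapping days and the second day 0 library lowest (adjusted p = 0.39). Without the first day 0 library NOTCH1 was called higher (adjusted p = 0.024). The number of Notch genes called lower was 4 without the second day 0 library and 7 with the GC and length trends removed. Of 13 Hedgehog genes, 8 were higher, 5 of which passed through day 6 alone, and 1 was lower. Without those 5, 3 of 8 were higher (37.5%, beside 25.5% of all genes) and 1 lower, a small base. EVC2, the partner of EVC at the cilium, went from 2 counts to 197, a ratio of 97.6 (95% interval 26.7 to 812). The co-receptor CDON rose from 33.9 ± 3.22 to 54.5 ± 2.20 CPM (log2 fold change 0.68 ± 0.084, adjusted p = 3.2e-05), and HHIP, a decoy that is itself a Hedgehog target, fell from 38.6 ± 1.82 to 27.0 ± 1.73 CPM (log2 fold change -0.51 ± 0.076, adjusted p = 1.2e-04).

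YAP1, the transcriptional co-activator of the Hippo pathway that is silent in many neuroendocrine cancers, had 0 counts in all 3 day 0 libraries and 3.43, 5.30 and 4.65 CPM on day 6. Its 333 counts put it at least 110.01-fold higher, and its day 3 mean was 0.556 ± 0.186 CPM. AMOTL1, a scaffold that binds YAP, rose from 15.6 ± 2.75 to 37.7 ± 1.53 CPM (log2 fold change 1.27 ± 0.11, adjusted p = 2.5e-06). TEAD2, a DNA-binding partner, rose from 34.1 ± 3.77 to 61.3 ± 2.36 CPM (log2 fold change 0.85 ± 0.086, adjusted p = 6.6e-06), and the kinase LATS1, which inhibits YAP, fell from 61.2 ± 1.67 to 44.6 ± 3.03 CPM (log2 fold change -0.46 ± 0.079, adjusted p = 4.1e-04). Over the list as a whole 7 of 20 were higher and 6 lower. Without the 1 that passed through day 6 alone, 6 of 19 were higher and 6 lower (31.6% each), near the shares of all genes.

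Genes of neuronal wiring and excitability were mostly higher. Of 53 axon guidance genes tested, 41 were higher and 4 lower, and without the 7 that passed through day 6 alone 34 of 46 were higher (73.9%), with a median of 0.76. The number lower was 2 without the first day 0 or the third day 6 library. The ephrin receptors EPHB2 and EPHA2 rose from 13.6 ± 2.23 to 37.0 ± 0.758 CPM (log2 fold change 1.44 ± 0.11, adjusted p = 4.6e-07) and from 1.92 ± 0.298 to 7.90 ± 0.4996 CPM (log2 fold change 2.05 ± 0.14, adjusted p = 2.8e-07). NTNG2, a membrane-bound netrin, had 22.1, 14.3 and 25.7 CPM on day 0 and 88.6, 91.0 and 105 CPM on day 6 (log2 fold change 2.194 ± 0.17, adjusted p = 6.3e-07), and the ligand EFNB3 rose from 6.08 ± 0.287 to 16.7 ± 2.26 CPM (log2 fold change 1.46 ± 0.11, adjusted p = 8.3e-07). Of 54 genes for calcium, sodium and potassium channels, 36 were higher and 5 lower. Without those that passed through 1 day alone, 28 of 45 were higher (62.2%) and 5 lower. CACNA1B, the N-type calcium channel of nerve terminals, had 0.326, 0.723 and 0.423 CPM on day 0 and 40.1, 42.2 and 50.9 CPM on day 6 (log2 fold change 6.52 ± 0.22, adjusted p = 1.2e-09). CACNA1I, a T-type channel like CACNA1H, had 1.598, 2.34 and 2.26 CPM on day 0 and 33.9, 41.9 and 45.8 CPM on day 6 (log2 fold change 4.31 ± 0.16, adjusted p = 2.0e-09). The sodium-activated potassium channel KCNT1 had 2.22, 2.55 and 1.93 CPM on day 0 and 29.8, 30.7 and 31.4 CPM on day 6 (log2 fold change 3.77 ± 0.11, adjusted p = 8.6e-10), and the auxiliary subunit CACNA2D2 had 0.163, 0.170 and 0.329 CPM on day 0 and 9.02, 10.1 and 13.1 CPM on day 6 (log2 fold change 5.62 ± 0.26, adjusted p = 1.1e-08). For all 4 the lowest day 6 library lay far above the highest of day 0.

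Receptor tyrosine kinases were higher for 19 and lower for 1 of 28 tested. Without the 7 passing through day 6 alone, 12 of 21 were higher (57.1%, beside 25.5% of all genes) and 1 lower. When the second day 0 library was left out, 3 of the 28 were lower. FGFR1 rose from 15.03 ± 1.997 to 43.9 ± 2.72 CPM (log2 fold change 1.55 ± 0.10, adjusted p = 1.8e-07), MERTK rose from 0.402 ± 0.0378 to 2.67 ± 0.0488 CPM (log2 fold change 2.73 ± 0.23, adjusted p = 1.5e-06) and TEK, the angiopoietin receptor, rose from 2.06 ± 0.461 to 9.39 ± 1.58 CPM (log2 fold change 2.186 ± 0.18, adjusted p = 1.3e-06). Immediate early and AP-1 genes, which respond to such receptors, were higher for 21 and lower for 1 of 29 (median 0.48), but for 11 and 5 when the GC and length trends were removed. The phosphatases DUSP4 and DUSP6, feedback inhibitors of ERK signalling, had 27.0, 28.7 and 31.6 CPM on day 0 and 90.5, 102 and 104 CPM on day 6 (log2 fold change 1.77 ± 0.093, adjusted p = 2.9e-08) and 3.26, 4.34 and 2.44 CPM on day 0 and 19.4, 21.1 and 20.1 CPM on day 6 (log2 fold change 2.59 ± 0.18, adjusted p = 2.4e-07). IER3 rose from 12.8 ± 2.96 to 35.7 ± 4.57 CPM (log2 fold change 1.49 ± 0.15, adjusted p = 6.6e-06) and EGR3 rose from 0.561 ± 0.0923 to 2.69 ± 0.387 CPM (log2 fold change 2.23 ± 0.23, adjusted p = 7.7e-06). MYC had 203, 249 and 209 CPM on day 0 and 285, 252 and 284 CPM on day 6 (log2 fold change 0.32 ± 0.09, adjusted p = 0.01). Its call was lost without the first day 6 library, and with the GC and length trends removed its log2 fold change was -0.0059 (adjusted p = 0.96).

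DNA replication genes were mostly lower. By edgeR none of 47 was higher (0 at an unadjusted p under 0.05, and none by DESeq2 or limma with voom) and 32 were lower (68.1%, beside 27.4%), with a median of -0.36. RRM2, the regulated subunit of ribonucleotide reductase, had 332, 381 and 342 CPM on day 0 and 196, 185 and 187 CPM on day 6 (log2 fold change -0.89 ± 0.077, adjusted p = 1.8e-06). CDC6, which loads the replicative helicase, fell from 131 ± 7.55 to 72.9 ± 4.08 CPM (log2 fold change -0.84 ± 0.079, adjusted p = 3.5e-06), CHAF1B, of chromatin assembly factor 1, fell from 92.1 ± 4.22 to 56.8 ± 1.07 CPM (log2 fold change -0.70 ± 0.068, adjusted p = 4.7e-06) and POLA1, the catalytic subunit of DNA polymerase alpha, fell from 114 ± 4.596 to 69.2 ± 6.94 CPM (log2 fold change -0.72 ± 0.082, adjusted p = 1.8e-05). None fell by as much as 2-fold. With library size alone, 2 replication genes were higher and 27 lower, and 2 were also higher without the second day 0 library and with the GC and length trends removed.

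Mitosis genes did not share that pattern. Of 43, 4 were higher and 10 lower, below the shares of all genes in both directions, with a median of -0.045 that was 0.06 with library size alone and 0.07 with the GC and length trends removed. The number higher was 11 with library size alone or without the second day 0 library, and 15 with the GC and length trends removed. AURKA, the centrosomal kinase, fell from 107 ± 12.7 to 79.97 ± 2.47 CPM (log2 fold change -0.42 ± 0.085, adjusted p = 0.0012), while CDC25C, the phosphatase of mitotic entry, rose from 29.4 ± 3.56 to 41.6 ± 0.888 CPM (log2 fold change 0.50 ± 0.089, adjusted p = 5.0e-04) and KIF2C rose from 78.0 ± 1.42 to 96.8 ± 4.62 CPM (log2 fold change 0.31 ± 0.066, adjusted p = 0.0018). The proliferation marker MKI67 had 593, 331 and 545 CPM on day 0 and 472, 459 and 433 CPM on day 6, with the second day 0 library below all others (adjusted p = 0.61). Without that library MKI67 was called lower, at a log2 fold change of -0.33 (adjusted p = 5.3e-04). Of 6 inhibitors of cyclin-dependent kinases, CDKN1A, which encodes p21, had 2.87, 3.91 and 2.73 CPM on day 0 and 14.7, 15.3 and 17.9 CPM on day 6 (log2 fold change 2.33 ± 0.14, adjusted p = 8.8e-08), and CDKN1C, which encodes p57, had 2.61, 2.81 and 2.40 CPM on day 0 and 9.45, 10.04 and 12.8 CPM on day 6 (log2 fold change 2.04 ± 0.16, adjusted p = 7.3e-07). CDKN2C fell from 42.4 ± 3.79 to 31.3 ± 1.55 CPM (log2 fold change -0.44 ± 0.093, adjusted p = 0.0018). CDKN2A had 0 counts in all 9 libraries. Without the second day 0 library 4 of the inhibitors were called higher in place of 2.

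Chaperones were mostly lower. Of 34 cytosolic and mitochondrial chaperones none was higher by edgeR (0 at an unadjusted p under 0.05, and none by DESeq2 or limma with voom) and 29 were lower (85.3%), with a median of -0.64. In other settings 1 was higher without the second day 0 library, and 1 with the GC and length trends removed. The mitochondrial chaperonin HSPD1 had 1138, 1279 and 1176 CPM on day 0 and 602, 571 and 492 CPM on day 6 (log2 fold change -1.11 ± 0.091, adjusted p = 1.2e-06). HSPA9, the mitochondrial HSP70, fell from 1376 ± 81.5 to 712 ± 42.1 CPM (log2 fold change -0.95 ± 0.079, adjusted p = 1.4e-06), HSPH1 fell from 382 ± 34.1 to 177 ± 24.0 CPM (log2 fold change -1.11 ± 0.11, adjusted p = 4.0e-06), and TCP1, a subunit of the cytosolic chaperonin, fell from 465 ± 49.9 to 263 ± 11.8 CPM (log2 fold change -0.83 ± 0.089, adjusted p = 1.1e-05). HSPD1 and HSPH1 were the 2 that fell by at least 2-fold. HSPD1, HSPA8 and HSP90AA1 have processed copies in the genome, so their counts are less certain. On day 3 HSPD1 was at 635 ± 26.6 CPM, nearer to day 6 than to day 0. Endoplasmic reticulum chaperones and genes of the unfolded protein response were lower for 14 of 23 (60.9%, beside 27.4% of all genes) and higher for 2. HSPA5, which encodes BiP, fell from 362 ± 20.6 to 247 ± 7.32 CPM (log2 fold change -0.55 ± 0.072, adjusted p = 5.1e-05) and the lectin chaperone CANX fell from 523 ± 19.5 to 348 ± 18.4 CPM (log2 fold change -0.59 ± 0.071, adjusted p = 2.7e-05).

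Genes of the mitochondrial ribosome and its factors were lower for 46 of 62 (74.2%) and higher for 1, with a median of -0.40. GFM1, the elongation factor of that ribosome, had 167, 183 and 181 CPM on day 0 and 86.8, 83.1 and 74.5 CPM on day 6 (log2 fold change -1.12 ± 0.076, adjusted p = 2.4e-07), and MRPL16 had 182, 239 and 185 CPM on day 0 and 108, 103 and 98.1 CPM on day 6 (log2 fold change -0.97 ± 0.10, adjusted p = 9.7e-06). The count lower was 35 with the GC and length trends removed. Without the second day 0 library 3 genes of this list were higher, and its median was -0.30. The 13 genes encoded in the mitochondrial genome stood apart: 1 was called higher and none lower by edgeR (0 lower at an unadjusted p under 0.05, and none by DESeq2 or limma with voom), and without the second day 0 library 6 were higher. ATF4 targets, which respond to amino acid shortage, were higher for 14 and lower for 5 of 32. Without the 1 that passed through day 6 alone, 13 of 31 were higher (41.9%, beside 25.5% of all genes) and 5 lower. ADM2 and TRIB3 rose from 4.55 ± 0.430 to 20.95 ± 3.94 CPM (log2 fold change 2.21 ± 0.19, adjusted p = 1.9e-06) and from 35.0 ± 1.97 to 79.8 ± 11.7 CPM (log2 fold change 1.19 ± 0.11, adjusted p = 3.8e-06). ASNS, which makes asparagine, rose from 105 ± 16.3 to 182 ± 9.56 CPM (log2 fold change 0.79 ± 0.11, adjusted p = 7.0e-05) and PHGDH, the first enzyme of serine synthesis, rose from 227 ± 4.22 to 337 ± 20.3 CPM (log2 fold change 0.57 ± 0.072, adjusted p = 4.0e-05). Their day 3 means were 184 ± 14.5 CPM and 399.98 ± 14.2 CPM.

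Glycolysis and hypoxia genes were mostly higher. Of 36 tested, 27 were higher (75%) and 1 lower, with a median of 0.51. SLC2A3, the high-affinity glucose transporter, had 0.228, 0.553 and 0.517 CPM on day 0 and 11.4, 13.9 and 15.2 CPM on day 6 (log2 fold change 5.004 ± 0.25, adjusted p = 2.0e-08), with a day 3 mean of 0.882 ± 0.180 CPM. EPAS1, which encodes the hypoxia-inducible factor HIF-2 alpha, rose from 16.5 ± 1.16 to 55.04 ± 5.30 CPM (log2 fold change 1.74 ± 0.089, adjusted p = 2.3e-08). ALDOC, an aldolase, rose from 49.8 ± 10.95 to 143 ± 17.2 CPM (log2 fold change 1.53 ± 0.14, adjusted p = 3.0e-06), and SLC16A3, the exporter of lactate, rose from 2.52 ± 0.166 to 7.38 ± 0.748 CPM (log2 fold change 1.55 ± 0.15, adjusted p = 5.4e-06). Cholesterol synthesis genes were higher for 16 of 32 (50%, beside 25.5% of all genes) and lower for 2, none by as much as 2-fold. The mevalonate pathway enzyme MVD rose from 87.1 ± 6.95 to 133 ± 12.3 CPM (log2 fold change 0.61 ± 0.086, adjusted p = 9.6e-05).

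**Figure D4:**
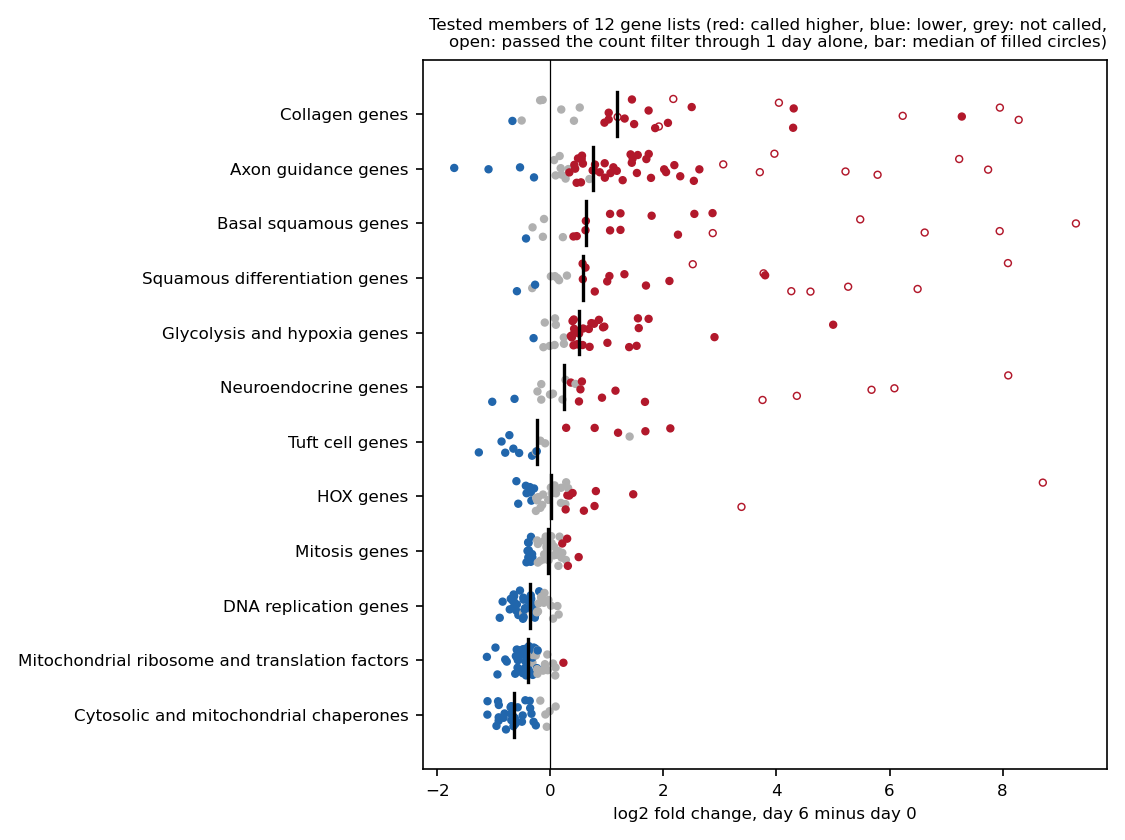
Each circle is 1 tested member of 1 of 12 gene lists, placed by its log2 fold change of day 6 minus day 0 (the vertical scatter within a list has no meaning), and black bars are medians of the filled circles. Collagen, axon guidance, squamous and neuroendocrine lists have long tails to the right made largely of open circles, genes that passed the count minimum through day 6 alone. Replication, mitochondrial ribosome and chaperone lists form compact clouds left of 0, with medians of -0.36, -0.40 and -0.64.

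Antigen presentation genes rose in part. Of 21 genes of the class I pathway, 10 were higher (47.6%, beside 25.5% of all genes) and 3 lower. HLA-B and HLA-E rose with log2 fold changes of 0.93 ± 0.084 and 1.31 ± 0.091. Class I genes resemble each other closely, so the split of reads among them is uncertain. TAP1, the peptide transporter, rose from 11.6 ± 0.123 to 24.5 ± 2.06 CPM (log2 fold change 1.08 ± 0.085, adjusted p = 8.1e-07), and PSMB9, a subunit of the immunoproteasome, rose from 1.34 ± 0.198 to 5.05 ± 0.623 CPM (log2 fold change 1.93 ± 0.18, adjusted p = 3.1e-06). Interferon response genes, some of them shared with that list, were higher for 22 and lower for 4 of 44. Without the 2 that passed through day 6 alone, 20 of 42 were higher (47.6%) and 4 lower, with a median of 0.40. UBE2L6, the conjugating enzyme for ISG15, had 2.22, 3.996 and 2.26 CPM on day 0 and 16.1, 15.4 and 18.002 CPM on day 6 (log2 fold change 2.55 ± 0.21, adjusted p = 1.3e-06) and IFITM1, a membrane protein that restricts viruses, had 1.43, 2.42 and 1.27 CPM on day 0 and 8.44, 9.10 and 10.6 CPM on day 6 (log2 fold change 2.46 ± 0.20, adjusted p = 1.0e-06).

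Cancer germline antigens, genes of the testis that many tumours express, were higher for 15 and lower for 4 of 22. Most of those that rose, 10, had passed through day 6 alone. Among the other 12, 5 were higher and 4 lower. MAGEA10 had 1.11, 1.148 and 0.893 CPM on day 0 and 10.6, 8.66 and 10.9 CPM on day 6 (log2 fold change 3.25 ± 0.16, adjusted p = 2.0e-08) and MAGEC1 had 1.402, 1.32 and 1.36 CPM on day 0 and 7.87, 8.02 and 9.30 CPM on day 6 (log2 fold change 2.62 ± 0.13, adjusted p = 2.3e-08). MAGEA11 had 0.228, 0.298 and 0.188 CPM on day 0 and 10.6, 11.9 and 9.95 CPM on day 6 (log2 fold change 5.47 ± 0.20, adjusted p = 1.9e-09). MAGEA3, which was abundant on day 0, fell from 159.6 ± 18.2 to 110.4 ± 6.18 CPM (log2 fold change -0.53 ± 0.091, adjusted p = 3.9e-04). Members of the MAGE, SSX, PAGE and GAGE families are near-identical copies, so reads may have been shared among them. In the BCL2 family, BBC3, the p53 target PUMA, had 3.16, 3.401 and 3.29 CPM on day 0 and 17.997, 17.2 and 19.6 CPM on day 6 (log2 fold change 2.48 ± 0.10, adjusted p = 5.3e-09). MCL1 fell from 166 ± 5.97 to 123 ± 6.29 CPM (log2 fold change -0.43 ± 0.07, adjusted p = 3.0e-04) and BCL2 rose from 37.4 ± 2.10 to 51.9 ± 2.35 CPM (log2 fold change 0.47 ± 0.072, adjusted p = 1.7e-04). In total 7 of 20 were higher and 2 lower. Without the 1 that passed through day 6 alone, 6 of 19 were higher (31.6%, beside 25.5% of all genes) and 2 lower. With the GC and length trends removed 7 were lower.

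Markers of further cell types that a carcinoma line should lack were measured in the same way. Of 21 leukocyte markers 8 were tested, 2 of them higher and 1 lower, and 5 were at 0 in all 6 libraries. Their summed level ran from 490.3 to 646 CPM on day 0 and 332 to 334 CPM on day 6, nearly all of it the lysozyme gene LYZ, which fell from 543 ± 82.4 to 323 ± 2.56 CPM (log2 fold change -0.75 ± 0.10, adjusted p = 5.0e-05). Endothelial markers were tested for 4 of 12, with 3 higher, and summed to 2.87 to 4.38 CPM on day 0 and 11.4 to 15.5 CPM on day 6. Of 8 hepatocyte markers 2 were tested, and APOB went from 0 counts to 38, at least 12.6-fold higher. Cytosolic ribosomal protein genes were higher for 10 and lower for 6 of 73, below the shares of all genes. This count was 42 higher without the second day 0 library, 28 with library size alone, 21 with the GC and length trends removed, and 5 without any 1 of the first or the third day 0 library or the first or the third day 6 library.

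Position and composition of the genes were described over the whole comparison. Chromosomes 22 and 19 held the highest shares of genes called higher, 42.1% of 378 and 39.9% of 1124, and chromosome 13 the highest share called lower, 36.2% of 254. Of the genes tested, 14697 could be matched by symbol to GENCODE release 29. Among protein-coding genes 30.04% were higher and 27.1% lower, and among 812 pseudogenes 19.2% and 11.2%. Only 14 long intergenic and 9 antisense RNA genes were tested. Calls followed transcript GC content closely. In the quintile of genes with the lowest GC content 12.5% were higher and 41.9% lower, and in the quintile with the highest GC content 51.7% were higher and 7.67% lower. With the trends on GC content and length removed from each library, the same quintiles gave 36.6% and 16.4%, and 30.9% and 34.4%. That setting, chosen after the data were seen, kept 5784 of the 8361 calls and turned the direction of 114. Whether the trend with GC content arose in the cells or in library preparation was not tested.

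**Figure D5:**
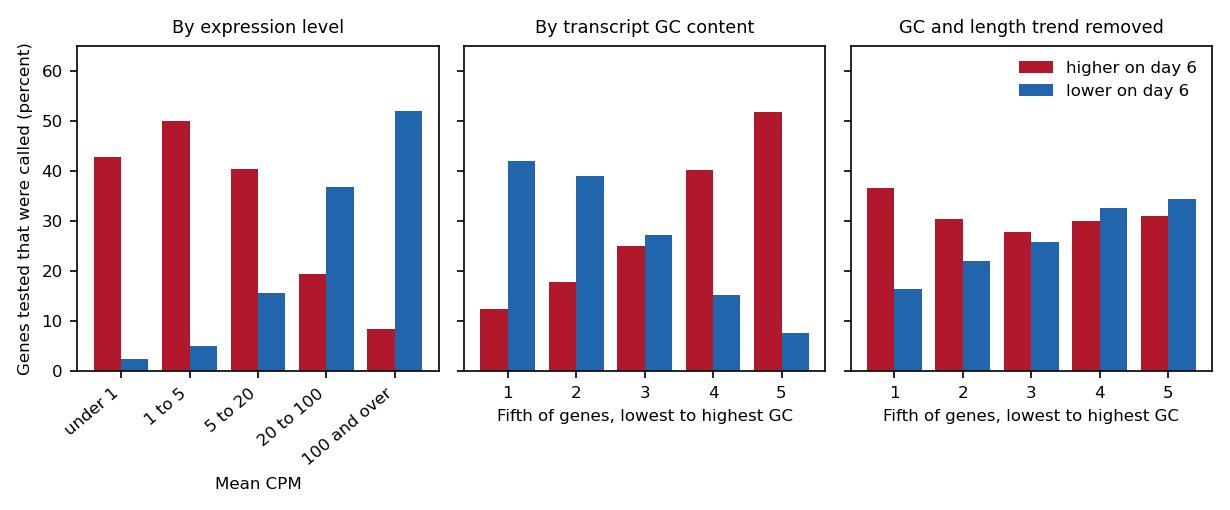
Bars give the percent of tested genes called higher (red) and lower (blue) on day 6 by mean level in CPM (left), by quintiles of transcript GC content (centre) and by the same quintiles after trends on GC content and length were removed (right). The share called higher is 42.7% under 1 CPM and 8.44% from 100 CPM upwards, and it rises from 12.5% to 51.7% across the GC quintiles, while on the right it runs from 36.6% to 30.9%.

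The promoter windows of RefSeq (250 bases before to 50 after the start, GRCh38.p14) could be matched for 11232 of the 15129 genes. A window was called CpG-rich where at least 55% of its bases were G or C and its CG dinucleotides were at least 0.65 of the number given by its base composition. By this measure 70.5% of the windows of all tested genes were CpG-rich. The share was 57.2% for genes at least 2-fold higher, 80.3% for genes lower by less than 2-fold and 50.8% for genes at least 2-fold lower. Level bears on this share. Under a mean of 5 CPM, 53.8% of the windows of genes at least 2-fold higher were CpG-rich, against 39.2% of those not called and 20.8% of those at least 2-fold lower. From 5 CPM upwards the same shares were 65.01%, 77.4% and 68.3%. The motif TATAAA, searched on both strands as TATAAA and TTTATA, lay in 7.33% of windows of genes at least 2-fold higher and in 18.5% of the 65 windows of genes at least 2-fold lower, against 6.17% of all tested genes. These shares describe letters in the windows and not bound factors.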

How the data were processed

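Poly(A)-selected TruSeq libraries of TRIzol RNA were made, per the labels' protocols, 3 each of day 0, day 3 and day 6. The authors deposited 1 table of estimated counts per gene. Tools named by the submitters' processing notes are kallisto 0.44.0, bcl2fastq 2.19 and DESeq2, with the builds GRCh38 and GRCm38, and whether counting used strand is not given in the sources used here. The estimated counts need not be whole and were rounded. Genes needed at least 10 counts in 3 of the 6 compared libraries. All 9 libraries entered 1 edgeR 4.0.16 fit (TMM, a mean per day), tested by quasi-likelihood for day 6 minus day 0 with Benjamini-Hochberg adjustment, and the procedure was tested on simulated data. A count of 3 corresponds to 0.0978 to 0.141 CPM in a compared library, and intervals cover counting error only.

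Members, gene lists and the naming rule were chosen with earlier results of these data known. Named are a fixed set, the 12 largest rises and falls that reach a mean of 5 CPM without overlap between days, in each list up to 5 called genes of smallest p (or 2 by level where none was called), and the 8 largest differences in CPM each way. Some genes that this rule names are not reported here. TRPM5, PROX1, TFAP2A, ANXA1, GRHL1, EPCAM, CDH2, ZEB2, ID1, ID2, FST, COL4A5, MAGEA3, DCN and LUM fall outside the rule and were chosen after their values were seen. Alternatives were DESeq2 1.42.0, limma 3.58.1 with voom, other scalings, filters and thresholds, a replicate block, each library left out, and, chosen after seeing the data, removal of trends on GENCODE transcript GC content and length fitted with mgcv 1.9.3.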

Additional observations from a re-analysis of the deposited data

How the results depend on the processing

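Against 4430 genes higher and 3931 lower, a test against a minimum change of 2-fold called 1575 and 28. The other 20 settings stayed within 1.5 times of both counts. Among them, a threshold of 0.01 gave 3604 and 2796, library size alone 5282 and 2668, a mean of at least 5 CPM 3051 and 2869, only the 6 compared libraries 4041 and 3266, DESeq2 4258 and 4056, limma with voom 4460 and 3877, and GC and length trends removed 4579 and 3858. Leaving out 1 library at a time gave 3870 to 4856 higher and 3340 to 4475 lower.

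Of 246 named genes, 238 were called, and 222 of these kept direction and call in every setting other than the test against 2-fold. Of the 8 not called, 4 gained a call in some setting, namely EZH1, INSM1, NOTCH1 and MKI67. Most of the 246 were named for large changes or small p in these same data, so these counts do not describe called genes in general. Over all genes, removal of the GC and length trends kept 5784 of the 8361 calls. Some log2 fold changes reversed. Leaving out 1 library, NEUROD1 ran from -0.37 to 0.072, SYP from -0.070 to 0.18 (-0.014 without the second day 6 library), REST from -0.16 to 0.0092 and MKI67 from -0.33 to 0.054. With the GC and length trends removed, INSM1 was at -0.37 (adjusted p = 0.035), SYP at -0.19, MKI67 at 0.070, MYC at -0.0059, KDM6B at -0.11 and CENPN at 0.014. REST was at 0.053 with library size alone and at 0.022 where a mean of 5 CPM was required. The cause was not tested.

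Deviations of same-numbered day 0 and day 6 libraries correlated at 0.069, 0.16 and 0.21. Pairs of unlike number ran from -0.16 to 0.057, so each library correlated best with its own number. This is a hint from the data that does not settle whether same-numbered libraries shared a culture, which the labels do not say. With a replicate block, 4398 genes were higher and 3908 lower.

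Depth limits genes near the floor of 3 counts, such as KRT14 and IVL. Over the tested members of a list, setting genes at 0 on day 0 to their lower bound moved the hepatocyte median from 3.42 to 1.89.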
